A study of Mus musculus with 9 samples.

Results

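The matrix metalloproteinase (MMP) cluster of mouse chromosome 9 is a row of genes for secreted zinc proteases that cut collagens, proteoglycans and other matrix proteins. Its 10 members, *Mmp1a*, *Mmp1b*, *Mmp3*, *Mmp7*, *Mmp8*, *Mmp10*, *Mmp12*, *Mmp13*, *Mmp20* and *Mmp27*, were found by symbol among the 55471 genes in the deposited tables. RNA was sequenced from 9 cultures of articular chondrocytes isolated from mice on postnatal day 5, and each of the 3 groups held 3 cultures. The groups were chondrocytes infected with a control adenovirus (Ad-Control), with an adenovirus that makes the cells express the collagen receptor OSCAR (Ad-OSCAR), or with Ad-OSCAR followed by the anti-inflammatory drug 5-aminosalicylic acid (Ad-OSCAR+5-ASA). The sample annotations give 3 days of culture, 400 MOI of virus for 2 h, and 36 h after infection, in all groups. The paper's methods give a higher virus dose and shorter times before and after infection. All plates were coated with COLpep, a collagen peptide that binds OSCAR, and no interleukin was added. There was no group with Ad-Control and 5-ASA, so the drug was seen only in OSCAR-overexpressing cells. No source used here says whether the cultures of a group came from separate animals, so the p-values measure the spread between cultures, which may be technical.

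MMPs are made as inactive proenzymes, are activated outside the cell by other proteases, and are held in check by tissue inhibitors of metalloproteinases (TIMPs). The collagenases of this cluster (MMP1, MMP8 and MMP13) can cut the triple helix of fibrillar collagen. The stromelysins MMP3 and MMP10 cut proteoglycans and can activate procollagenases, and MMP12 is known as macrophage elastase. In cartilage, MMP13 is the main collagenase acting on collagen-II, and MMP3 and MMP13 are the members most often measured in osteoarthritis. Expression of several of these genes is known to depend on AP-1, a dimer of FOS and JUN family proteins.

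In GRCm38, the 10 genes occupied 427.072 kb, from 7272514 to 7699585 on chromosome 9. Their order was *Mmp13*, *Mmp12*, *Mmp1b*, *Mmp3*, *Mmp1a*, *Mmp10*, *Mmp8*, *Mmp27*, *Mmp20* and *Mmp7*, with 9 genes on the plus strand and *Mmp1b* on the minus strand. GENCODE M21 lists *Mmp1a* as a polymorphic pseudogene and the other members as protein-coding. The 300-base windows around RefSeq start sites (GRCm38.p6; 250 bases before and 50 after each start) were found for 10 of 10 members. The AP-1 element, written TGACTCA or its reverse complement TGAGTCA, was present in a window of 7 members. It was present in 5.95% of the 27025 genes that have such windows. The 7 matches are shown because they lie before the start of members that differ widely in level, with the element in capitals and 11 bases on each side.

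Mmp13 (chr9:7272468-7272496, plus strand): ccccaaagtggTGACTCAtcactatcatg
Mmp12 (chr9:7347319-7347347, plus strand): gacatcaacagTGAGTCAgatagaggatt
Mmp1b (chr9:7388102-7388130, minus strand): gttacaaagccTGAGTCAtatagcctctg
Mmp3 (chr9:7445765-7445793, plus strand): ggaagcaattaTGAGTCAgttttcgggtg
Mmp1a (chr9:7464057-7464085, plus strand): gttgtcaaccaTGAGTCAcatagcctctg
Mmp10 (chr9:7502268-7502296, plus strand): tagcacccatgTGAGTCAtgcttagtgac
Mmp7 (chr9:7692016-7692044, plus strand): aagtgtgcaaaTGAGTCAcctatttccac

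The element began at -35 from the start in *Mmp13*, -46 in *Mmp3*, -63 in *Mmp10* and *Mmp7*, -73 in *Mmp1a* and -93 in *Mmp1b*. In *Mmp12* it began at -44 from the start of a RefSeq transcript that lies inside the GENCODE gene. The windows of *Mmp8*, *Mmp27* and *Mmp20* did not hold these letters. The letters TATAAA, searched in the direction of transcription, were in a window of 8 members, against 9.77% of the same genes. A match describes the sequence and was not tested as a binding site.

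The depth was similar across the cultures, with total counts of 19733448 to 28192740. *Oscar*, the overexpressed gene, had 3 to 4 counts in Ad-Control, 173445 to 187278 in Ad-OSCAR and 80766 to 94199 in Ad-OSCAR+5-ASA cultures. Thus *Oscar* RNA itself was lower with 5-ASA (log2 fold change -0.97, adjusted p = 1.76e-08), and its part in the 5-ASA results below was not tested. The cells carried chondrocyte RNA: the 10 chondrocyte markers on the list summed to between 15083 and 17163 TPM (transcript abundance as a share of the library, corrected for gene length) in Ad-Control. All 10 of these markers fell with Ad-OSCAR (32.2% of all genes did), where their sum was 888 to 1022 TPM, and the sum was 984 to 1169 TPM with 5-ASA. They ranged from *Hapln1* (log2 fold change -1.09), a link protein of aggrecan, to *Matn3* (-7.47), a matrilin. With 5-ASA, 5 of them rose (10.4% of all genes did), from *Sox9* (0.24), the chondrocyte transcription factor, to *Col9a1* (0.42). In bulk RNA, fewer cells of a type and less RNA per cell cannot be told apart.

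The members covered a very wide range of levels. In Ad-Control, the order by mean TPM was *Mmp13*, *Mmp3*, *Mmp12*, *Mmp10*, *Mmp27*, *Mmp8*, *Mmp1b*, and then *Mmp1a*, *Mmp20* and *Mmp7* at 0. *Mmp13* (2262, 2468 and 2226 TPM) lay close to *Mmp3* (2176, 2339 and 2113 TPM), and their ranges overlapped. Further down this order, the ranges of *Mmp10* and *Mmp27* overlapped, as did those of *Mmp8* and *Mmp1b*. *Mmp13* and *Mmp3* ranked 47 and 51 among all genes by mean TPM. With Ad-OSCAR the order at the top changed: *Mmp3* ranked 5 and *Mmp13* ranked 14. *Mmp12* (30.82, 29.73 and 35.79 TPM) and *Mmp10* (29.89, 25.42 and 32.90 TPM) came next, with overlapping ranges.

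**Figure D1:**
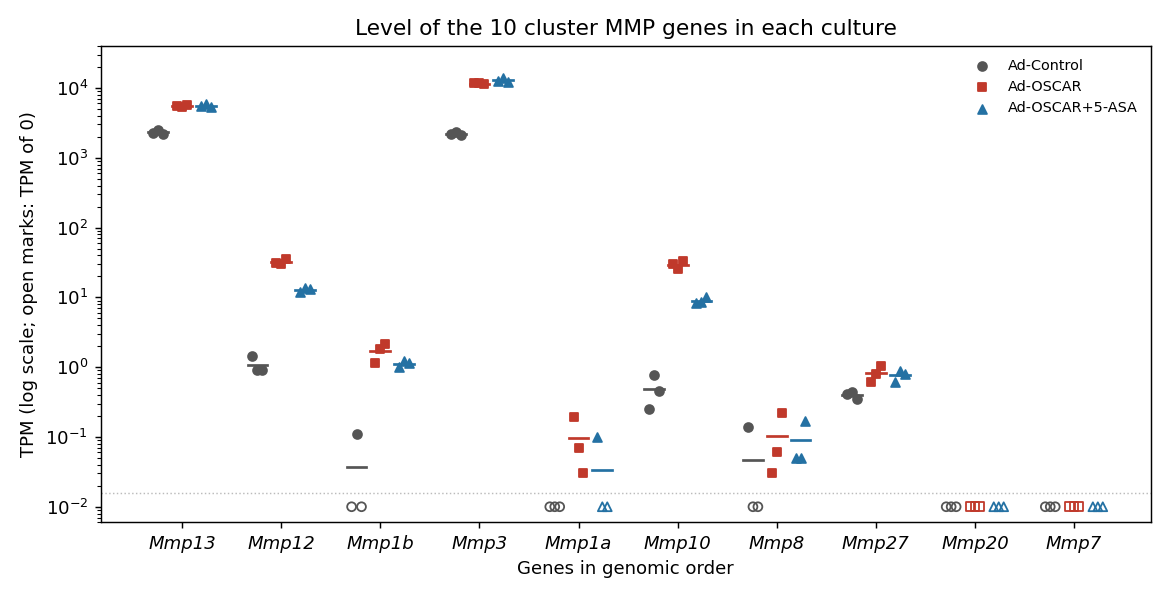
TPM of each member in each of the 9 cultures on a log axis, in genomic order; each mark is a culture, the short lines are group means, and open marks below the dotted line are cultures at 0. *Mmp13* and *Mmp3* lie between 2113 and 13744 TPM in all cultures, and *Mmp20* and *Mmp7* are at 0 in all of them.

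OSCAR overexpression was accompanied by higher RNA of both abundant members and of the scarce *Mmp10* and *Mmp12*, which rose from few counts. Of the 10 members, 8 had a count in some culture and 6 passed the filter on low counts. All 6 of these were upregulated with Ad-OSCAR, against 32.7% of all genes tested. A call here is an adjusted p below 0.05 over 15362 genes in edgeR (quasi-likelihood F test, Benjamini-Hochberg method). *Mmp10*, *Mmp1b* and *Mmp27* had fewer than 10 counts in at least 1 Ad-Control culture and depended on their higher levels elsewhere to pass, so the count gives no support for a direction of the cluster. *Mmp3*, *Mmp12* and *Mmp13* had at least 10 counts in every culture. At an absolute log2 fold change above 1.5 as well, *Mmp3*, *Mmp10*, *Mmp12* and *Mmp1b* were upregulated, that is 4 members against 4.57% of all genes.

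Among the collagenases, *Mmp13* had 72481, 89976 and 63731 counts in the Ad-Control cultures, and 236637, 196661 and 226320 in the Ad-OSCAR cultures. Every Ad-OSCAR culture was above every Ad-Control culture. Scaled to library size with TMM factors, this was 3496 ± 177 CPM (counts scaled to the library; SD, n = 3) in Ad-Control and 8108 ± 109 CPM (SD, n = 3) in Ad-OSCAR. The log2 fold change was 1.21 (standard error 0.04, adjusted p = 3.58e-14). *Mmp1b*, a rodent relative of interstitial collagenase, had 0, 2 and 0 counts in Ad-Control and 25, 34 and 44 counts in Ad-OSCAR. The groups did not overlap, but the 2 counts in Ad-Control leave the size of the rise uncertain: the ratio of summed counts, corrected for library size, was 40.8 with an exact 95% interval from 11.01 to 341, which covers counting error only (adjusted p = 5.41e-07 in the edgeR fit). *Mmp1a* had no counts in Ad-Control and 6, 2 and 1 counts in Ad-OSCAR, and *Mmp8*, the neutrophil collagenase, had 4, 0 and 0 counts against 1, 2 and 8. Both were left out of the test by the filter, and a difference in *Mmp8* was not detectable at this depth (ratio 2.18, exact 95% interval 0.645 to 9.38).

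The stromelysins were *Mmp3* and *Mmp10*. *Mmp3* had 45188, 55328 and 39203 counts in Ad-Control and 326798, 277550 and 295840 counts in Ad-OSCAR, without overlap. Its level was 2159 ± 103 CPM (SD, n = 3) in Ad-Control and 11076 ± 310 CPM (SD, n = 3) in Ad-OSCAR. The log2 fold change was 2.36 with a standard error of 0.05 (adjusted p = 2.24e-17). *Mmp10* had 5, 17 and 8 counts in Ad-Control and 799, 578 and 814 in Ad-OSCAR. All Ad-OSCAR cultures were far above the Ad-Control cultures, at 26.8 ± 2.97 CPM (SD, n = 3) against 0.452 ± 0.233 CPM (SD, n = 3). Its log2 difference of 5.84 (standard error 0.18, adjusted p = 3.10e-15) rests on few control counts: without Ad-Control culture 2, which had 17 of them, it was 6.35, and without Ad-Control culture 1 it was 5.52.

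*Mmp3* and *Mmp10* resemble each other, and the counting divided some reads between them. Their coding sequences were 80.5% identical over aligned bases. The longest stretch that the transcripts shared exactly was 104 bases of coding sequence. It is shown because, in these paired reads, a read inside it cannot be assigned to either gene without its mate. In *Mmp3* it spans chr9:7447092-7447177 in exon 2 and chr9:7447268-7447285 in exon 3 (plus strand), and in *Mmp10* it spans chr9:7503305-7503390 in exon 2 and chr9:7503481-7503498 in exon 3 (plus strand).

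Mmp3 and Mmp10 shared stretch: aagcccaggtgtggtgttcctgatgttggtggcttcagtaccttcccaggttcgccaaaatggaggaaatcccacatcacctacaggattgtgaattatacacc

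Of the 50-base windows along each transcript, 7.99% of those of *Mmp3* and 8.37% of those of *Mmp10* occurred in the other. In all 7 cultures in which both genes had counts with a decimal part, the sum of the pair was whole to within 0.02 counts. In Ad-Control culture 2 the parts (55327.99 and 17.01) were themselves that close to whole. In the others, these were reads divided between the 2 genes. For example, 326797.65 counts for *Mmp3* and 799.35 for *Mmp10* in Ad-OSCAR culture 1 summed to 327597. *Mmp3* had far more counts than *Mmp10* in every culture, so the division weighs more on *Mmp10*. The values of *Mmp10* are therefore uncertain to that extent. The ratio of *Mmp10* to *Mmp3* TPM was 0.000115, 0.000325 and 0.000213 in Ad-Control and 0.00257, 0.00219 and 0.00290 in Ad-OSCAR. With 5-ASA it was 0.000668, 0.000628 and 0.000815. The part of divided reads in these ratios was not tested.

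*Mmp12*, macrophage elastase, had 24, 16 and 16 counts in Ad-Control and 804, 693 and 889 counts in Ad-OSCAR. The Ad-OSCAR cultures were all higher, at 29.3 ± 2.65 CPM (SD, n = 3) against 0.879 ± 0.239 CPM (SD, n = 3). The log2 fold change was 5.07 (standard error 0.14, adjusted p = 5.26e-16), and it lay between 4.87 and 5.30 when any culture was left out. The 3′ end of *Mmp12* lies over that of *Mmp1b* on the opposite strand, with 157 bases of exon in common (chr9:7369165-7369321) through 1 of 7 *Mmp12* transcripts. Across the genome, reads were divided between genes on opposite strands (65.3% of 5372 values over 1033 overlapping pairs gave a whole sum), so reads in the common exon could go to either gene. Such a division was seen in Ad-OSCAR culture 2, where 692.82 counts for *Mmp12* and 34.18 for *Mmp1b* summed to 727.

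Since *Mmp12* is named for macrophages, and *Mmp8* for neutrophils, markers of these cells were measured in the same cultures. Of 13 macrophage markers, *C1qa*, *C1qb*, *C1qc* and *Cd163* had no counts in any culture, and *Adgre1*, *Ptprc*, *Itgam*, *Fcgr1* and *Cx3cr1* had at most 3. The 13 markers together gave 8.44 to 11.5 TPM in Ad-Control, 20.3 to 22.3 TPM in Ad-OSCAR and 16.0 to 17.3 TPM with 5-ASA. Of the 4 macrophage markers that passed the filter, *Cd68*, a lysosomal protein, rose with Ad-OSCAR (log2 fold change 2.06), *Lyz2* rose by 0.43, *Mrc1* fell by 0.82 on the log2 scale and *Csf1r* did not pass. With 5-ASA, *Cd68* fell by 0.38 on the log2 scale in edgeR, the other 3 did not pass, and none of the list passed in DESeq2. Of 8 neutrophil markers, *S100a9* had no counts, *Ly6g*, *Mpo*, *Elane*, *Ltf* and *Csf3r* had at most 2 in any culture, and *S100a8* (4.63) and *Camp* (1.85) were the 2 that passed the filter, both higher with Ad-OSCAR. With 5-ASA, *Camp* rose (0.28) in edgeR, where 0 of this list rose in DESeq2, and *S100a8* fell by 0.70 on the log2 scale. The 8 summed to 10.0 to 12.2 TPM in Ad-Control, 78.0 to 84.8 TPM in Ad-OSCAR and 62.2 to 68.8 TPM with 5-ASA, nearly all of it from *S100a8* and *Camp*.

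*Mmp27*, a little-studied member, had 9, 11 and 6 counts in Ad-Control and 17, 18 and 27 counts in Ad-OSCAR. The groups did not overlap, and the log2 fold change was 0.92 (standard error 0.35, adjusted p = 0.0281). This was the weakest call: it was lost with DESeq2 (adjusted p = 0.114) and without Ad-Control culture 1 (0.0588), Ad-Control culture 3 (0.0936) or Ad-OSCAR culture 3 (0.133) in edgeR. *Mmp20*, the enamel protease enamelysin, and *Mmp7*, the epithelial protease matrilysin, had 0 counts in all 9 cultures. A count of 0 allows up to 3 counts per culture, or 0.102 to 0.159 CPM. Both genes lie over the antisense transcript *AV064505*.

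**Figure D2:**
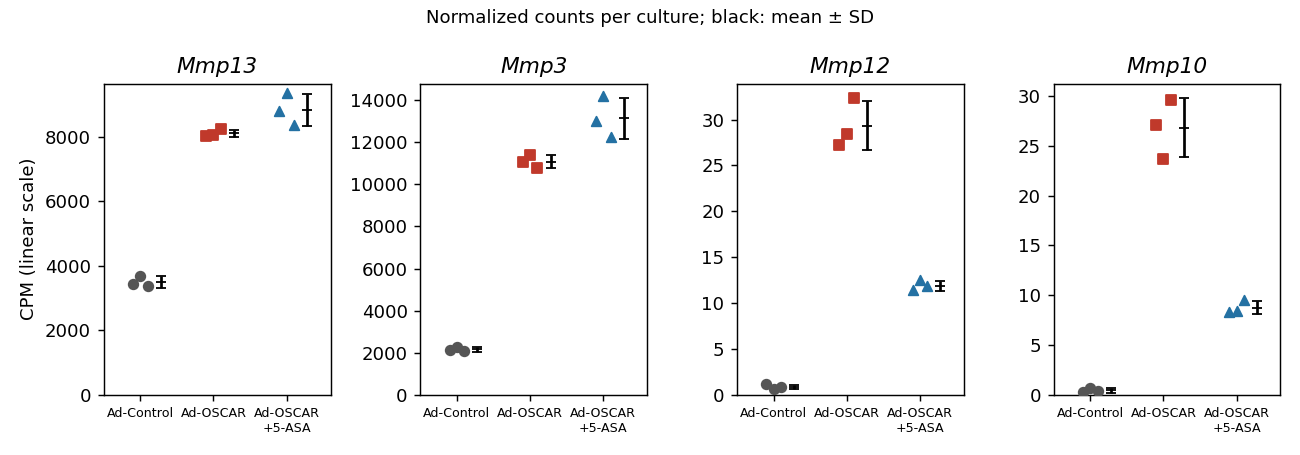
CPM of *Mmp13*, *Mmp3*, *Mmp12* and *Mmp10* in each culture on linear axes that start at 0, with marks for cultures and black bars for the mean ± SD of 3 cultures. All 4 genes are higher in Ad-OSCAR than in Ad-Control, and *Mmp12* and *Mmp10* are lower with 5-ASA whereas *Mmp13* and *Mmp3* are not.

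Treatment of OSCAR-overexpressing cells with 5-ASA was followed by opposite changes within the cluster. Of the 6 members tested, *Mmp10* and *Mmp12* were downregulated relative to Ad-OSCAR (7.38% of all genes were), *Mmp3* was slightly upregulated (10.4% of all genes were), and *Mmp13*, *Mmp1b* and *Mmp27* did not pass the test. Since the Ad-OSCAR cultures also serve in the comparison with Ad-Control, the 2 comparisons are not independent.

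*Mmp10* fell from 799, 578 and 814 counts in Ad-OSCAR to 215, 232 and 240 with 5-ASA, with all treated cultures below all untreated ones. Its level with 5-ASA was 8.74 ± 0.653 CPM (SD, n = 3), and the log2 fold change was -1.62 with a standard error of 0.10 (adjusted p = 1.34e-08). *Mmp12* had 296, 342 and 300 counts with 5-ASA, or 11.9 ± 0.547 CPM (SD, n = 3), again below every untreated Ad-OSCAR culture. Its log2 fold change was -1.30 (standard error 0.08, adjusted p = 1.35e-08). These were the 2 members, against 1.87% of all genes, that were also downregulated at a fold change above 1.5 and an unadjusted p below 0.05. When any culture was left out, the log2 fold change stayed between -1.70 and -1.55 for *Mmp10* and between -1.36 and -1.23 for *Mmp12*.

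Neither of the abundant members was lower with 5-ASA. *Mmp3* had 338275, 388771 and 309828 counts, or 13147 ± 975 CPM (SD, n = 3), and each treated culture was above each untreated one. The log2 fold change was 0.25 (standard error 0.05, adjusted p = 0.00125). In TPM the rise was smaller and did not pass (log2 fold change 0.15, adjusted p = 0.125 in limma with a pseudocount of 0.1). The TPM scale shares its total with *Saa3*, an acute-phase protein gene that alone had a mean of 129250 TPM in Ad-OSCAR and 148280 TPM with 5-ASA. On that scale the median of all genes moved by -0.10 with 5-ASA, and the part of *Saa3* in this was not tested. *Mmp13* had 228540, 256220 and 211782 counts, or 8836 ± 490 CPM (SD, n = 3), and its log2 fold change over the untreated cultures was 0.12 with a standard error of 0.04 (adjusted p = 0.0566). This difference passed the threshold with DESeq2 (adjusted p = 0.0272), with RLE normalization (0.0488), without a filter (0.0160) and with a replicate block. It also passed without Ad-Control culture 2 (0.0334) and without Ad-OSCAR+5-ASA culture 3 (0.0150). It did not pass with a minimum of 10 counts in every culture (0.0737), with only the 2 groups compared (0.0841) or on leaving out any other culture (up to 0.207), and in TPM it was 0.029 on the log2 scale (adjusted p = 0.773 in limma with a pseudocount of 0.1).

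*Mmp1b* had 21, 27 and 23 counts with 5-ASA, which overlapped the untreated range, and its difference of -0.50 on the log2 scale (standard error 0.30, adjusted p = 0.298) did not pass. *Mmp27* had 16, 26 and 20 counts, again overlapping. For *Mmp27* the ratio of summed counts was 1.03 (exact 95% interval 0.715 to 1.49), so a moderate change in either direction was not detectable at this depth. *Mmp1a* had 3, 0 and 0 counts and *Mmp8* had 2, 2 and 6.

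Treated cells remained above Ad-Control cells. All 6 members tested were upregulated in Ad-OSCAR+5-ASA relative to Ad-Control, against 31.4% of all genes. *Mmp10*, *Mmp1b* and *Mmp27*, with few Ad-Control counts, depended on their higher levels elsewhere to pass the filter. This count therefore gives no support for a direction of the cluster. The log2 fold change was 2.61 for *Mmp3*, 1.34 for *Mmp13*, 4.22 for *Mmp10* and 3.77 for *Mmp12* (adjusted p from 2.34e-13 for *Mmp12* and 4.51e-12 for *Mmp10* down to 6.73e-18 for *Mmp3*). For *Mmp1b* the ratio of summed counts was 29.1 (exact 95% interval 7.76 to 245). For *Mmp27* it was 1.95 (exact 95% interval 1.22 to 3.22; adjusted p = 0.0228 in edgeR), and that call was lost with DESeq2 (adjusted p = 0.101), without Ad-Control culture 1 (0.0503) or 3 (0.0796) and without Ad-OSCAR+5-ASA culture 2 (0.0994).

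**Figure D3:**
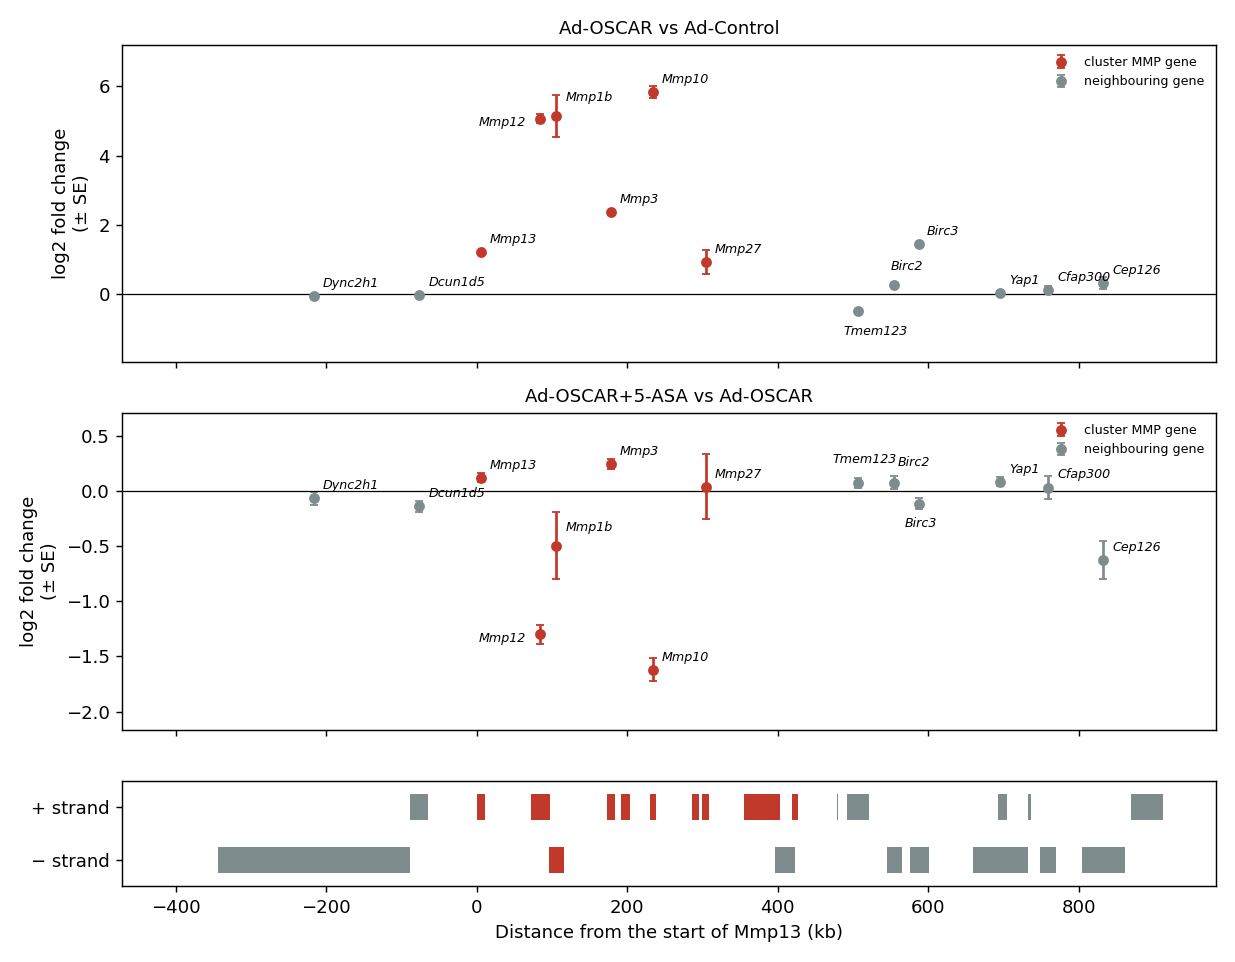
Log2 fold change (± standard error) of the cluster members and their neighbours that passed the filter, placed by distance from the start of *Mmp13* in kb, for Ad-OSCAR against Ad-Control (top) and 5-ASA (middle); the bottom panel draws all annotated genes by strand. *Mmp10* (5.84), *Mmp1b* (5.15, which rests on 2 Ad-Control counts) and *Mmp12* (5.07) lie highest in the top panel, and *Mmp10* (-1.62) and *Mmp12* (-1.30) lie lowest in the middle one.

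The changes did not follow the order of the genes. *Mmp3* lies between *Mmp12* and *Mmp10*, both of which fell with 5-ASA, whereas *Mmp3* rose. Of the 20 other genes annotated from 500 kb before to 500 kb after the cluster, 8 passed the filter. With Ad-OSCAR, *Birc3* (log2 fold change 1.44, adjusted p = 1.41e-13) and *Birc2* (0.27), which encode inhibitors of apoptosis, rose, and *Tmem123* fell by 0.49 on the log2 scale. *Dync2h1* (-0.06), *Dcun1d5* (-0.04), *Yap1* (0.03), *Cfap300* (0.12) and *Cep126* (0.31) did not pass. The median over the 8 neighbours was 0.08, beside 0.02 over all genes tested. With 5-ASA, *Cep126* fell by 0.62 on the log2 scale (adjusted p = 0.0152) and the other 7 neighbours did not pass.

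Together the members made up 4530 ± 246 TPM (SD, n = 3) in Ad-Control, 17076 ± 80.9 TPM (SD, n = 3) in Ad-OSCAR and 18459 ± 1046 TPM (SD, n = 3) with 5-ASA, that is 0.453%, 1.71% and 1.85% of all TPM. The 13 MMP genes elsewhere in the genome summed to 460 ± 5.59, 651 ± 5.79 and 676 ± 37.0 TPM (SD, n = 3). Within the cluster, *Mmp3* and *Mmp13* held at least 99.6% in each group mean. The 8 other members summed to 1.72 to 2.24 TPM in Ad-Control, 57.9 to 72.2 TPM in Ad-OSCAR and 21.9 to 25.2 TPM with 5-ASA. Thus the members that fell with 5-ASA contributed little to the total RNA of the cluster.

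The balance between members was compared within cultures. The ratio of *Mmp3* to *Mmp13* TPM was 0.962, 0.948 and 0.949 in Ad-Control, 2.13, 2.18 and 2.02 in Ad-OSCAR, and 2.28, 2.34 and 2.26 with 5-ASA. The 3 groups did not overlap in this ratio. The ratio of *Mmp12* to *Mmp10* TPM was 5.76, 1.197 and 2.04 in Ad-Control, where both had few counts, then 1.03, 1.17 and 1.09 in Ad-OSCAR and 1.41, 1.59 and 1.31 with 5-ASA. Over 12 such comparisons of log2 ratios, 11 had p = 0.1 in the two-sided exact permutation test, the smallest value that 3 cultures against 3 allow, and an adjusted p of 0.109, so none could pass. The other, *Mmp12* to *Mmp10* in treated cells against Ad-Control, had p = 0.4 in the same exact test.

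**Figure D4:**
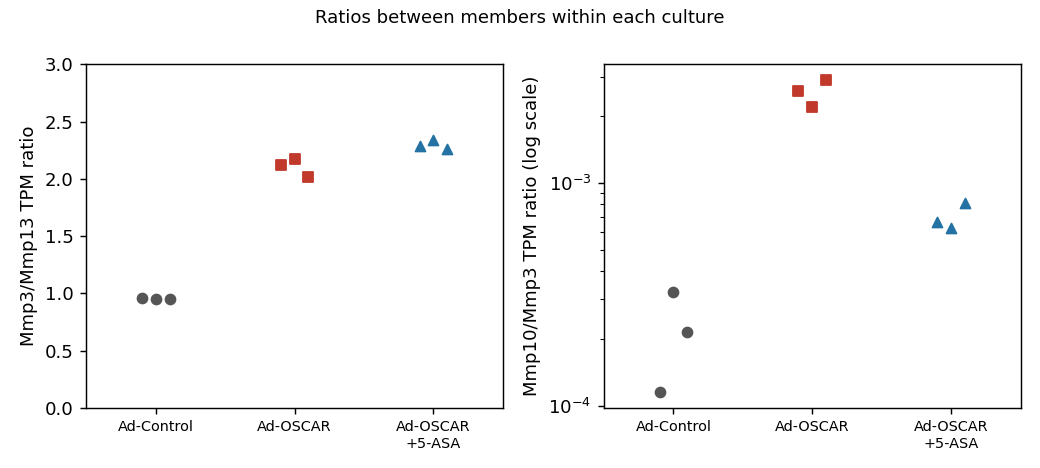
Ratio of *Mmp3* to *Mmp13* TPM (left, linear axis) and of *Mmp10* to *Mmp3* TPM (right, log axis) in each of the 9 cultures. The left ratio is 0.948 to 0.962 in Ad-Control and above 2 elsewhere; the right ratio is highest in Ad-OSCAR and intermediate with 5-ASA.

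Of 11 MMP genes tested that lie elsewhere in the genome, 6 rose and 2 fell with Ad-OSCAR, where 32.7% of all genes rose and 32.2% fell. *Mmp25*, a membrane-anchored MMP, rose most (log2 fold change 2.98, standard error 0.23) and *Mmp23* fell by 1.88 on the log2 scale (standard error 0.09). With 5-ASA, 5 rose and 2 fell, beside 10.4% and 7.38% of all genes, from *Mmp23* (0.70) to *Mmp15* (-0.64). Their median log2 fold change was 0.54 with Ad-OSCAR and 0.25 with 5-ASA, beside 0.02 and -0.004 over all genes.

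Of 5 genes tested that encode inhibitors of MMPs, 4 fell and 1 rose with Ad-OSCAR, against 32.2% and 32.7% of all genes, and the median was -0.85. *Timp3*, the inhibitor that stays bound to the matrix, fell by 3.35 on the log2 scale (standard error 0.05) and *Timp1* rose (0.41, standard error 0.05). With 5-ASA, 4 of the 5 rose (10.4% of all genes did), *Timp3* the most (0.89, standard error 0.05), and *A2m*, which traps proteases, fell by 0.45 on the log2 scale. Of 6 genes of proenzyme activation through plasmin and furin, 5 fell with Ad-OSCAR (32.2% of all genes did), including *Plau*, the urokinase that makes plasmin (-0.98). *Serpinb2*, an inhibitor of plasminogen activators, was the exception and rose (5.39, standard error 0.31). With 5-ASA, *Serpinb2* fell by 0.50 on the log2 scale in edgeR, and 0 genes of this list were called down in DESeq2.

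Of 7 tested genes for AP-1 subunits, which bind the element shown above, 4 rose and 2 fell with Ad-OSCAR, beside 32.7% and 32.2% of all genes, from *Fosl1* (0.97, standard error 0.08) to *Fos* (-0.61, standard error 0.12). With 5-ASA, 0 of the 7 passed in edgeR, 1 had an unadjusted p below 0.05, and 0 passed in DESeq2. Of 11 other known regulators of MMP genes, 10 rose with Ad-OSCAR (32.7% of all genes did), from *Ets1* (0.25) to *Etv4* (2.42), both ETS factors, and the median was 0.83. With 5-ASA, *Epas1* rose (0.13), *Ets2* (-0.23) and *Lef1* (-0.50) fell and 8 did not pass, where 10.4% of all genes rose and 7.38% fell.

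Among other marker lists, the 6 synovial fibroblast markers summed to 382 to 411 TPM in Ad-Control, 902 to 975 TPM in Ad-OSCAR and 747 to 831 TPM with 5-ASA. Of these, 4 rose with Ad-OSCAR (32.7% of all genes did), including *Prg4* (lubricin, 1.86), which superficial chondrocytes also make. The other 2 fell (32.2% of all genes did), including *Thy1* (-2.53). With 5-ASA, 2 of the 6 rose and 2 fell, beside 10.4% and 7.38% of all genes, from *Thy1* (0.80) to *Pdpn* (-0.26). Since fibroblasts of the synovium also make *Mmp3*, the part of such cells in its level was not tested. Of 4 osteoclast markers tested, 3 rose with Ad-OSCAR (32.7% of all genes did), namely *Atp6v0d2*, *Calcr* and *Ctsk* (log2 fold change 0.59). *Acp5* fell by 0.62 on the log2 scale (32.2% of all genes fell). *Atp6v0d2* had 0, 1 and 0 counts in Ad-Control and 46, 40 and 54 in Ad-OSCAR, and *Calcr* had 1, 3 and 1 and then 25, 11 and 24. With 5-ASA, 0 of the 4 passed in edgeR, with 0 at an unadjusted p below 0.05, and 0 passed in DESeq2. All 6, of which *Acp5* was the most abundant in each group, summed to 23.9 to 25.1 TPM in Ad-Control, 23.2 to 23.9 TPM in Ad-OSCAR and 20.7 to 22.1 TPM with 5-ASA. *Krt18*, the epithelial keratin gene, was the only epithelial marker that passed the filter and rose with Ad-OSCAR (1.51). The 6 epithelial markers summed to at most 1.11 TPM in any culture.

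For the 3 members with the highest mean CPM, the genes whose log2 CPM followed each most closely over the 9 cultures were ranked among 13263 genes. This is a description without a test, since the cultures fall into 3 separate groups. For *Mmp3* they were *Abcb1a* (Pearson r = 0.999), a drug efflux pump, *Vnn3* and *Nt5e*, the adenosine-producing CD73. For *Mmp13* they were *Pcsk5*, a proprotein convertase, *Slc38a1*, an amino acid transporter, and *Medag* (r = 0.999 for each). For *Mmp12* they were *Cd14* (r = 0.997), a receptor for bacterial lipopolysaccharide, *Lilrb4a* (0.996) and *Cdo1* (0.995), which oxidizes cysteine. *Vnn3* had a mean of 15.5 CPM in Ad-Control, 173 CPM in Ad-OSCAR and 210 CPM with 5-ASA, whereas *Cd14* had 10.6, 22.2 and 18.2 CPM. The annotation of *Lilrb4a* lies within another gene on the same strand, so its counts are uncertain.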

How the data were processed

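Per the paper's methods, the authors trimmed reads of stranded mRNA libraries with BBDuk and aligned them to GRCm38. The submitters' processing notes name STAR 2.7.1a and RSEM 1.3.1, and the paper's reporting summary names another RSEM version for TPM. The authors deposited RSEM estimated counts per gene, which are not scaled and need not be whole. The deposited TPM, also made by the authors with RSEM, are scaled to gene length and to each library. Whole sums of counts divided between genes on opposite strands showed that the counting did not separate strands.

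Of 55471 gene identifiers, 55144 were matched to a symbol in the given gene table, and coordinates and transcripts are from GENCODE M21 (GRCm38). Estimated counts were rounded and tested with edgeR 4.0.16 in R 4.3.3 (TMM normalization, filterByExpr, quasi-likelihood F test in one fit of all 9 cultures, no covariates), which left 15362 genes, 6 residual degrees of freedom and a biological coefficient of variation of 5.11%. Calls had a Benjamini-Hochberg adjusted p below 0.05 over all genes tested. Standard errors were taken as the absolute fitted difference over the square root of the F statistic. Depth limits were set at 3 counts per culture. Replicates differed by more than sampling noise (chi-square per degree of freedom from 4.25 to 8.10). On simulated counts for Ad-OSCAR against Ad-Control with 197 changed genes among 15109, the fit recovered 89.3%, with 8 false calls.

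Alternatives were DESeq2 1.42.0, RLE normalization, no filter, fits restricted to the groups compared, a minimum of 10 counts per culture, a replicate block, log2 TPM with limma 3.58.1 (pseudocounts 0.1 and 1), the paper's limits (a fold limit, with an unadjusted p for 5-ASA), and fits without each culture in turn. Ratios and intervals were computed with scipy 1.17.1. All members were named, and from each list the called genes with the largest and smallest log2 fold change, the neighbours of the cluster, the 3 most correlated genes for each of the 3 members with the highest mean CPM, and *Oscar*. Other list genes (*Lyz2*, *Csf1r*, *Ets2*, *Calcr*, *Ctsk* and the marker genes at or near 0) were named after their values were seen. The members and lists were chosen with earlier results of these data known. A result that this rule would name is not reported here. Protein sequences were not used here.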

Additional observations from a re-analysis of the deposited data

How the results depend on the processing

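The calls of *Mmp3*, *Mmp10*, *Mmp12*, *Mmp13* and *Mmp1b* against Ad-Control, and of *Mmp10* and *Mmp12* with 5-ASA, kept their direction and side of the threshold under each alternative that could test them, except that *Mmp13* (1.21) was under the limit of 1.5 on the log2 fold change for Ad-OSCAR. A minimum of 10 counts in every culture left out *Mmp10*, *Mmp1b* and *Mmp27*, so 3 members were called against Ad-Control, with and without 5-ASA. The limit of 1.5 on the log2 fold change lowered the number of genes changed to 1530 (702 up, 828 down) for Ad-OSCAR. A limit of 1.5 on the fold together with an unadjusted in place of an adjusted p gave 637 (349 up, 288 down) for 5-ASA against Ad-OSCAR and 4592 (2241 up, 2351 down) for 5-ASA against Ad-Control. The 5-ASA difference of *Mmp27* turned from 0.04 to -0.067 and -0.036 in TPM with pseudocounts of 0.1 and 1, and ranged from -0.14 to 0.26 when each culture was left out, negative without Ad-OSCAR culture 1 or Ad-OSCAR+5-ASA culture 2. The cause was not tested. Without a filter, *Mmp1a* was also called up with Ad-OSCAR. Same-numbered cultures had a mean correlation of -0.021 (-0.072 to 0.040), and 2 of 9 correlated best with their own number. No pairing by number was seen in this, but 3 cultures a group cannot exclude it. The replicate block gave 6, 4 and 6 members called for Ad-OSCAR, 5-ASA against Ad-OSCAR and 5-ASA against Ad-Control, with *Mmp13* added in the second (log2 fold change 0.12, adjusted p = 0.0364 in edgeR). With 3 cultures a group, leaving out any changed the members called from 6 to between 5 and 6 against Ad-Control and from 3 to between 3 and 4 for 5-ASA against Ad-OSCAR. Depth limits *Mmp8*, *Mmp1a*, *Mmp27* and the Ad-Control level of *Mmp1b*.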
